A study of Mus musculus with 10 samples.

Results

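The 10 genes described here encode secreted defence proteins of mouse epithelia: the WAP four-disulfide core genes Slpi, Wfdc2, Wfdc12 and Wfdc18, the metal-binding proteins Lcn2, Ltf, S100a8 and S100a9, and the beta-defensins Defb4 and Defb14. They are 10 of the 27151 genes in the deposited table and were chosen by name, from measured values of these same libraries, so their SP2509 against vehicle differences are given as a description: no p is given for them, and the calls of the fit across all genes are only counted beside the share of all genes called. The libraries were made from the tongue of C57BL/6J mice that had been exposed in every case to 4NQO, which causes lesions of the oral mucosa. The animals had then received SP2509, an inhibitor of the histone demethylase LSD1 (6 libraries, titled SP2509h, where the h is not explained), or vehicle (4 libraries). The labels give no dose, time, age or sex, and do not say whether a library holds lesion or normal tissue, or whether separate mice gave the libraries, and p-values therefore refer to library-to-library spread.

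Mucosal epithelia limit microbes partly by secreting small proteins. WAP domain proteins inhibit serine proteases and several kill bacteria directly. Lipocalin 2 and lactoferrin keep iron from microbes, calprotectin, the dimer of S100A8 and S100A9, binds zinc and manganese, and beta-defensins are cationic peptides that disrupt microbial membranes. In the mouse, NF-kappaB, C/EBP and STAT3 factors downstream of IL-17, IL-22 and IL-1 family cytokines are known inducers of several of these genes. S100A8, S100A9, lactoferrin and lipocalin 2 are also abundant in neutrophils, and lactoferrin and several WAP proteins are products of salivary and other glands.

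Slpi (chromosome 2, 164354070 to 164389095, minus strand, GRCm38), Wfdc12 (164189231 to 164190608, minus strand) and Wfdc2 (164562413 to 164568510, plus strand) lie in the WAP gene cluster of chromosome 2, and Wfdc18 lies on chromosome 11 (83709015 to 83711348, plus strand). S100a8 (90668978 to 90670035, plus strand) and S100a9 (90692632 to 90695721, minus strand) are neighbours on chromosome 3, and Defb14 (19194357 to 19195212) and Defb4 (19198706 to 19201545) are neighbours on the plus strand of chromosome 8. Lcn2 lies on chromosome 2 (32384633 to 32388252, minus strand) and Ltf on chromosome 9 (111019271 to 111042767, plus strand). All 10 are annotated as protein coding in GENCODE M21. An exon of Slpi overlaps the microRNA gene Mir7678, which had 27 reads over all libraries, and an exon of Wfdc12 overlaps the antisense gene A730032A03Rik, which had 28. The strand setting of the counting is not given, so reads of Wfdc12 and its antisense partner cannot be told apart.

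RefSeq upstream sequences were matched for 8 of the 10 genes, and the 250 bases before each start were searched on both strands for 4 motifs. They are shown because C/EBP factors are known inducers of several of these genes, and a link to the profiles across libraries was not tested. The sequences below are from GRCm38.p6, 5′ to 3′ on the gene's strand, with the matched letters in capitals, and bases that GENCODE annotates as exon were left out except in the 30-base stretches of Lcn2 and S100a8. The matches in S100a9, Lcn2, Ltf and Slpi are to the C/EBP motif TTGCNNAA or its reverse complement, and those in S100a8 and Wfdc18 to the TATA box TATAAA.
S100a9 (chr3:90695722-90695971, minus strand): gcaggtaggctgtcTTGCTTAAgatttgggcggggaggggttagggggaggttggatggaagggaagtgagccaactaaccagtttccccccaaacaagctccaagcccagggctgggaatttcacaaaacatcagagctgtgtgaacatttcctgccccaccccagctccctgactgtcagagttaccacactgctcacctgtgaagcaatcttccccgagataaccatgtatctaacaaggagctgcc
S100a8 (chr3:90669029-90669058, plus strand): caagctttcctcTATAAAagcagctgacac
Lcn2 (chr2:32387937-32387966, minus strand): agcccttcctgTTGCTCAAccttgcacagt
Ltf (chr9:111019042-111019270, plus strand): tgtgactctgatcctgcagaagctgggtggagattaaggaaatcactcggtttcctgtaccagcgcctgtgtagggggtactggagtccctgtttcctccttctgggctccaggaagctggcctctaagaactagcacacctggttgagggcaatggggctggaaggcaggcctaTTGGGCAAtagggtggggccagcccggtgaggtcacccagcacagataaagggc
Slpi (chr2:164356508-164356757, minus strand): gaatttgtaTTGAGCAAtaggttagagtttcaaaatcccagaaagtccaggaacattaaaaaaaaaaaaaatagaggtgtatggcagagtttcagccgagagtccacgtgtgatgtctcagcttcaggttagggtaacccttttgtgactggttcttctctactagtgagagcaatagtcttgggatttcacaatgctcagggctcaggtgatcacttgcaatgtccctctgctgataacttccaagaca
Wfdc18 (chr11:83708754-83709003, plus strand): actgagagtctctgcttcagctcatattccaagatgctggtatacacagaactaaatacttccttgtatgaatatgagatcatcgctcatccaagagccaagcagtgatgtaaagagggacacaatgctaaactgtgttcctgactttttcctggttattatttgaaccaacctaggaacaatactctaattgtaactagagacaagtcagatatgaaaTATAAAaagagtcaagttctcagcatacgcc

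The C/EBP motif stood in 5 of the 8 windows (Slpi, Wfdc12, Lcn2, Ltf and S100a9), against 9.55% of 27025 mouse promoter windows of the same length. It began 75 bases before the start in Ltf and 216 to 241 bases before it in the other 4 genes. TATAAA stood in the windows of S100a8 and Wfdc18, 30 and 31 bases before the start, against 12.97% of all windows. The NF-kappaB consensus was in 0 of the 8 windows and in 3.75% of all windows, and AP-1 (TGANTCA) was in 0 of the 8 and in 6.87%. The motifs do not overlap in these windows. A match is a description of letters in a window and does not show that a factor binds there, and a window without a match says nothing about the factor.

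Read totals ran from 15748571 to 19375555 in SP2509 and from 9180844 to 14768955 in vehicle, and 1 read was worth 0.727 to 0.873 normalised reads in SP2509 and 0.898 to 1.85 in vehicle, so low genes were measured more coarsely in vehicle. Mitochondrial genes took 24.0% to 32.2% of reads in SP2509 and 35.3% to 52.1% in vehicle, without overlap. SP2509 replicates 1 and 2, and replicates 4 and 5, were the closest pairs of a group among well-counted genes: at 1000 to 5000 reads their spread was 3.49 and 3.72 times the Poisson expectation, against 11.2 to 163 in the other 19 pairs. Among genes with 10 to 50 reads it was 2.41 and 3.50, which overlapped the 2.61 to 6.95 of the other pairs. Each of these pairs is averaged to 1 unit in every mean ± SD, which gives 4 SP2509 units and 4 vehicle libraries. Fold changes and their SEs come from fits that count each library of a close pair separately, except where the pairs are said to be merged. Keratin genes, which define the stratified epithelium of the tongue, were abundant in every library, with 61941 to 325969 normalised reads summed over 16 keratinocyte markers in SP2509 and 102207 to 138531 in vehicle. SP2509 replicates 4 and 5 stood apart by gland transcripts, with 423274 and 433981 normalised reads summed over 21 salivary gland markers, while the other 4 SP2509 libraries had 789 to 3806 and vehicle libraries 1007 to 1588. In bulk tissue, fewer cells of a type and less RNA per cell cannot be told apart.

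Of the 10 genes, 9 passed the filter on low values and Ltf did not. In the fit across 17088 genes (limma on log2 of the normalised read count plus 1, Benjamini-Hochberg adjustment, called at an adjusted p under 0.05), Wfdc18 and Lcn2 were called higher and 0 of the 9 lower, where 4.95% of all tested genes were called higher and 4.15% lower. Every SP2509 library stood above every vehicle library for 4 of the genes (Wfdc18, Lcn2, S100a8 and S100a9), and the same held for 6.54% of tested genes. The genes were chosen on this contrast, so nothing is read from these counts, which also moved with the settings: 5 of the 9 were called with DESeq2, and 0 with the close pairs merged or without SP2509 replicates 4 and 5 (limma called 0 of all tested genes with the pairs merged, with 3632 at an unadjusted p under 0.05). The fold change was positive for 8 of the 9 and negative for Defb4, beside a median of 0.02 for the whole set of tested genes.

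**Figure D1:**
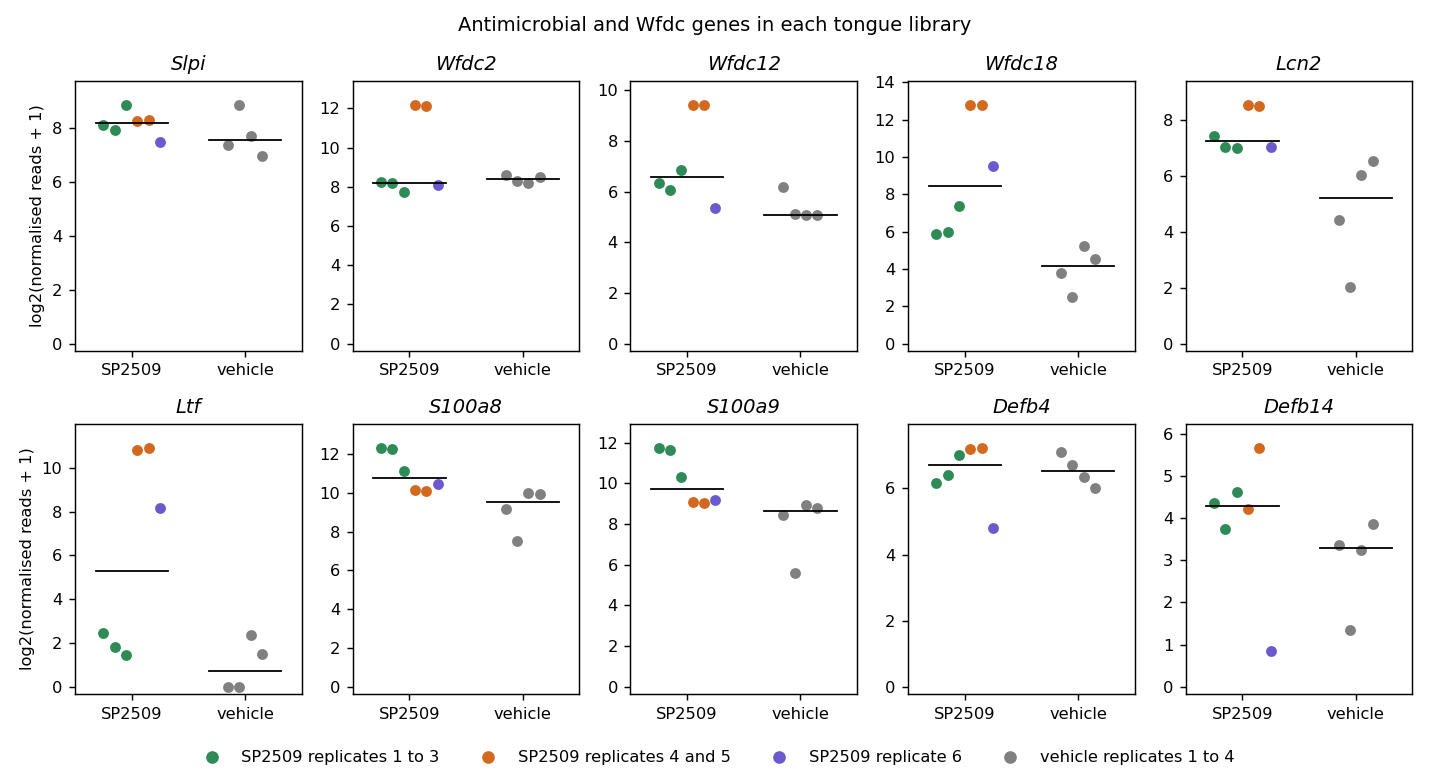
Level of each gene in every library, as log2 of the normalised read count plus 1 on the vertical axis, with SP2509 left of vehicle; points are libraries, coloured by replicate, and lines are group medians. Wfdc18, Lcn2, S100a8 and S100a9 are higher in all 6 SP2509 libraries than in all 4 vehicle libraries, while the other genes overlap; the highest Wfdc2, Wfdc12, Wfdc18 and Ltf points are SP2509 replicates 4 and 5.

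Among the WAP genes, Slpi, the inhibitor of neutrophil elastase and cathepsin G, was present at like levels in both groups. It had 176 normalised reads in the lowest SP2509 library (replicate 6), a median of 288 and 459 in the highest (replicate 3), against 163, 455, 207 and 122 in vehicle replicates 1 to 4. The groups overlapped over most of their range, since vehicle replicate 2 reached the level of the highest SP2509 library. The unit mean was 299 ± 119 in SP2509 and the mean 237 ± 149 in vehicle (SD, n = 4 each), with a log2 fold change of 0.43 ± 0.33 (SE). Slpi had the smallest spread of the 10 genes in SP2509, an SD of 0.46 on the log2 scale, against a median SD of 0.34 over all tested genes.

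Wfdc2, which encodes the secreted WAP protein also known as HE4, was at 302, 287, 210, 4622, 4438 and 272 normalised reads in SP2509 replicates 1 to 6 and at 393, 307, 289 and 365 in vehicle replicates 1 to 4. Replicates 4 and 5 were far above all other libraries, and the other 4 SP2509 libraries lay within the vehicle range (replicate 1) or below it. The log2 fold change was 1.02 ± 0.91 over the 10 libraries and turned to -0.34 ± 0.16 without replicates 4 and 5. With the close pairs merged it was 0.65 ± 0.81. The vehicle libraries varied little, with an SD of 0.21 on the log2 scale.

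Wfdc12, whose product has antibacterial activity in the mouse, followed the same libraries. It had 79.7, 66.8, 113, 677, 686 and 39.9 normalised reads in SP2509 replicates 1 to 6, against 72.3, 33.8, 32.4 and 32.3 in vehicle replicates 1 to 4. Replicates 4 and 5 were again highest, replicates 1 and 3 stood above every vehicle library by less, and replicates 2 and 6 lay within the vehicle range. The log2 fold change was 1.88 ± 0.76, and 0.79 ± 0.37 without replicates 4 and 5. Of the 3 WAP genes of chromosome 2, Wfdc2 and Wfdc12 had the more alike profiles, with a root mean square difference of 0.71 on the log2 scale after each gene was centred on its mean over the 10 libraries.

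Wfdc18, which encodes a secreted WAP protein first described as an extracellular proteinase inhibitor of the mammary gland, had the largest fold change of the 9 genes that were tested. It was at 58.1, 61.0, 166, 6918, 7053 and 741 normalised reads in SP2509 replicates 1 to 6, against 12.98, 4.61, 36.6 and 22.4 in vehicle replicates 1 to 4. All SP2509 libraries lay above all vehicle libraries, in 3 steps: replicates 1 to 3 lowest, replicate 6 higher and replicates 4 and 5 highest. The unit mean was 1988 ± 3345 in SP2509 and the mean 19.2 ± 13.7 in vehicle (SD, n = 4 each), where the vehicle libraries together held 61 reads of the gene and the SP2509 libraries 19294. The log2 fold change was 5.03 ± 1.42, and 4.88 ± 1.24 with the close pairs merged. It was 3.17 ± 0.82 without replicates 4 and 5 and 2.39 ± 0.62 with SP2509 replicates 1 to 3 alone, where the means were 95.0 and 19.2 normalised reads. With 1 library left out it ran from 4.28 to 5.66.

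Among the metal-binding proteins, Lcn2, which encodes the siderophore-binding lipocalin 2, had 174, 133, 127, 376, 366 and 133 normalised reads in SP2509 replicates 1 to 6, against 20.4, 3.07, 64.8 and 92.5 in vehicle replicates 1 to 4. All SP2509 libraries stood above all vehicle libraries. The SP2509 libraries other than replicates 4 and 5 lay close together, and the wider spread was in vehicle, where replicate 2 was lowest (SD on the log2 scale 0.74 in SP2509 and 2.03 in vehicle). The unit mean was 196 ± 117 in SP2509 and the mean 45.2 ± 40.9 in vehicle (SD, n = 4 each), with a log2 fold change of 2.85 ± 0.73. It was 2.39 ± 0.80 without replicates 4 and 5, 2.42 ± 0.97 with replicates 1 to 3 alone and 1.94 without vehicle replicate 2. With the close pairs merged it was 2.71 ± 0.85.

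Ltf, the gene of the iron-binding lactoferrin, was listed at 4.47, 2.47, 1.75, 1813, 1920 and 286 normalised reads in SP2509 replicates 1 to 6, and at 0, 0, 4.22 and 1.80 in vehicle replicates 1 to 4. The whole reads behind these values were 6, 3, 2, 2185, 2641 and 352 in SP2509 and 5 over all 4 vehicle libraries. Ltf was thus near the detection limit in vehicle and in SP2509 replicates 1 to 3, and abundant in the other 3 SP2509 libraries. It had a value of at least 10 in fewer than 4 libraries, so it did not enter the fit. A fit without the filter gave a log2 fold change of 4.97 ± 2.30.

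S100a8 and S100a9, the subunits of calprotectin, showed the opposite order of SP2509 libraries. S100a8 was at 5103, 4920, 2210, 1132, 1115 and 1422 normalised reads in SP2509 replicates 1 to 6, against 579, 184, 1005 and 979 in vehicle replicates 1 to 4. S100a9 was at 3386, 3205, 1246, 547, 517 and 571 in SP2509, against 347, 47.6, 480 and 445 in vehicle. For both genes every SP2509 library was above every vehicle library, replicates 1 to 3 were highest, replicates 4 to 6 lay just above the vehicle range, and vehicle replicate 2 was lowest.

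The gap between the groups was narrow at its closest point: the lowest S100a8 value in SP2509 was 1115 in replicate 5, against 1005 in vehicle replicate 3, and the lowest S100a9 value was 517 in replicate 5, against 480 in vehicle replicate 3. The unit mean of S100a8 was 2442 ± 1773 in SP2509 and the mean 687 ± 388 in vehicle (SD, n = 4 each), with a log2 fold change of 1.92 ± 0.56. For S100a9 these were 1411 ± 1298 in SP2509 and 330 ± 197 in vehicle, with a log2 fold change of 2.22 ± 0.75. Without replicates 4 and 5 both fold changes were larger, at 2.39 ± 0.57 for S100a8 and 2.76 ± 0.77 for S100a9. With SP2509 replicates 1 to 3 alone, the libraries where both genes were highest, they were 2.74 ± 0.67 and 3.28 ± 0.91. That fit was not planned, and its choice of libraries by itself raises these values. Its SE, like those of the other fits without merged pairs, counts the close pair of replicates 1 and 2 as separate libraries.

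Per kilobase of exon, S100a9 stood at 0.534 to 0.882 of the S100a8 level in SP2509 (median 0.696) and at 0.343 to 0.797 in vehicle (median 0.620), and the ranges overlapped. Their centred profiles differed by a root mean square of 0.37 on the log2 scale, the smallest of all pairs among the 10 genes, and each was the nearest to the other among the named genes with a mean of at least 50 that were searched. After S100a9, the genes nearest to S100a8 were Nat8l (0.53) and Hif1a (0.73), a subunit of the hypoxia-inducible factor.

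The beta-defensin Defb4 did not separate the groups. It was at 26.9 normalised reads in the lowest SP2509 library (replicate 6), a median of 106 and 148 in the highest (replicate 5), against 137, 103, 80.2 and 63.8 in vehicle replicates 1 to 4. The vehicle range lay inside the SP2509 range. The unit mean was 94.8 ± 54.0 in SP2509 and the mean 96.0 ± 31.8 in vehicle (SD, n = 4 each), with a log2 fold change of -0.08 ± 0.43. Defb14, the mouse counterpart of human beta-defensin 3, was at 19.4, 12.4, 23.6, 17.4, 49.4 and 0.814 normalised reads in SP2509 replicates 1 to 6, against 9.27, 1.54, 8.45 and 13.5 in vehicle replicates 1 to 4.

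Defb14 was low throughout, with 158 reads over the SP2509 libraries and 27 over the vehicle libraries, and the single read of replicate 6 put the lowest value in SP2509. The groups overlapped, and the log2 fold change was 0.96 ± 0.82, and 0.72 ± 0.94 with the close pairs merged. The profiles of the neighbouring genes Defb4 and Defb14 differed by a root mean square of 1.08, and those of Defb4 and Slpi by 0.66. Such a difference grows with each gene's own root mean square over the libraries, so these values do not rank likeness. That of Defb14 was 1.38, of Defb4 0.70 and of Slpi 0.59. SP2509 replicate 6, the library with the fewest keratinocyte reads, was the lowest SP2509 library for Defb4, Defb14, Slpi and Wfdc12.

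Compared per kilobase of exon, the order of the genes by normalised reads differed between the groups below the leading pair. S100a8 was highest, at a unit mean of 3518 per kilobase in SP2509 and a mean of 989 in vehicle, followed by S100a9 at 2703 in SP2509 and 632 in vehicle. In SP2509 the next were Wfdc18 (1630), Wfdc2 (1164), Wfdc12 (293), Slpi (253) and Defb4 (209), and in vehicle Wfdc2 (297), Defb4 (211.5), Slpi (201) and Wfdc12 (55.1). Lcn2, whose annotated exons are long, was at 74.8 per kilobase in SP2509 and 17.2 in vehicle. In SP2509 no neighbours in this order differed by more than the larger of their SDs over units, and in vehicle the same held from S100a8 down to Slpi apart from Wfdc2 and Defb4.

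**Figure D2:**
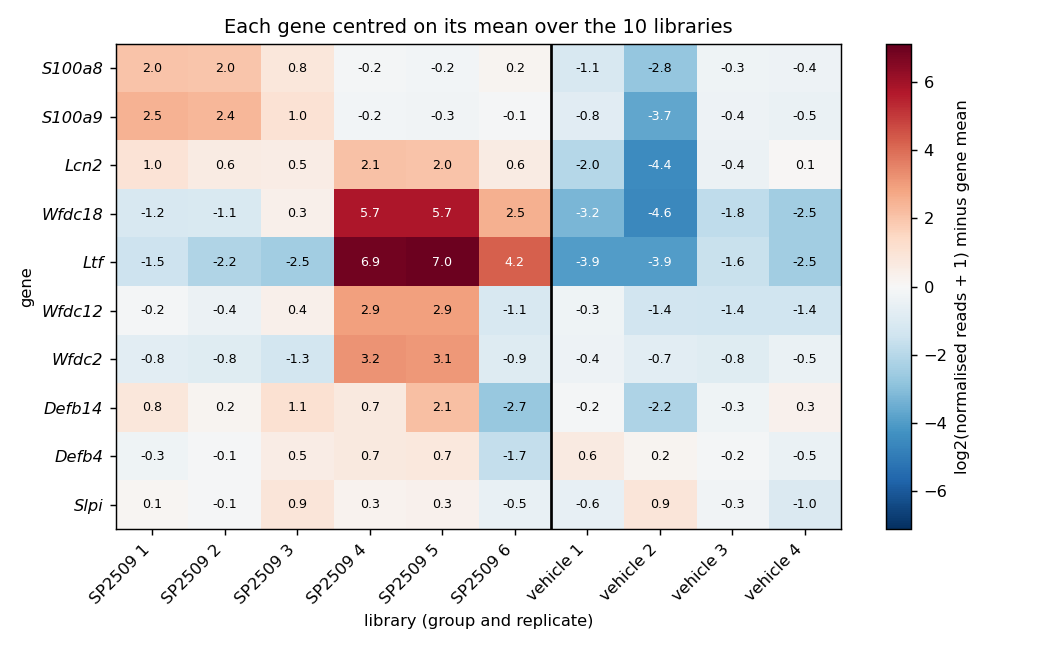
Each gene's log2 of the normalised read count plus 1 in each library minus its mean over the 10 libraries (colour and number in each cell), with SP2509 replicates 1 to 6 left of the line and vehicle replicates 1 to 4 right of it. S100a8 and S100a9 are highest in SP2509 replicates 1 and 2, Wfdc18 and Ltf in SP2509 replicates 4 and 5 followed by 6, and Wfdc2 and Wfdc12 in replicates 4 and 5 only; vehicle replicate 2 is the lowest vehicle library for S100a8, S100a9, Lcn2, Wfdc18 and Defb14.

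The 10 genes thus fell into several patterns across libraries, and all 9 that passed the filter varied more among SP2509 libraries than the median tested gene. On the log2 scale the SD among SP2509 libraries was 4.54 for Ltf, 3.17 for Wfdc18, 2.12 for Wfdc2 and 1.75 for Wfdc12, and 1.01 for S100a8 and 1.27 for S100a9. Profiles of Wfdc18 and Ltf differed from each other by a root mean square of 1.27, and the largest difference of any pair was 4.29, between Ltf and S100a9. Since 2 pairs of SP2509 libraries are nearly alike, these profiles rest on fewer independent points than 10.

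The genes with the nearest profiles to each of the others mark the same libraries. Those nearest to Wfdc2 were Slc38a1 (root mean square difference 0.17), Tesc (0.25) and Pycr1 (0.32), all high in SP2509 replicates 4 and 5. Nearest to Wfdc12 were Galnt6 (0.43), an O-glycosyltransferase gene, and the epithelial adhesion gene Epcam (0.58). Among genes that passed the filter, those nearest to Wfdc18 were the claudin gene Cldn7 (1.33), Msln (1.52) and the claudin gene Cldn3 (1.54). Ltf, which did not pass it and was not searched, was nearer to Wfdc18 (1.27), and other gland genes left out by the filter were not compared. Nearest to Slpi were Foxred2 (0.27) and Dnajc9 (0.30), and nearest to Defb4 were Nipal2 (0.28), the mitotic kinase gene Pbk (0.28) and the kinetochore gene Spdl1 (0.29). Nearest to Lcn2, whose own root mean square was 1.86, were Cfap298 (0.81) and the alcohol dehydrogenase gene Adh1 (1.06). Nearest to Defb14 was Sprr1b (0.67), a cornified envelope gene of squamous epithelium.

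Gland transcripts moved with Wfdc18, Ltf, Wfdc2 and Wfdc12. Lcn2 was also highest in SP2509 replicates 4 and 5, at 376 and 366 normalised reads, against 127 to 174 in the other SP2509 libraries. Bpifb1, a secreted protein gene of airway and oral glands, was at 104634 and 106723 normalised reads in SP2509 replicates 4 and 5, 6600 in replicate 6, 3.49 to 9.07 in replicates 1 to 3 and at most 9.21 in vehicle. The gland mucin gene Muc5b was at 270597 and 281216 in SP2509 replicates 4 and 5 and 644 in replicate 6, while replicates 1 to 3 had 6.70 to 11.5, and it reached 347 in vehicle replicate 2. The trefoil factor gene Tff2 had 50788 and 50984 in replicates 4 and 5 but 26.9 in replicate 6.

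Replicate 6 therefore carried some of these transcripts and little of others. The serous gland genes Dmbt1 (601) and Bpifa2 (243) were raised there along with Ltf and Wfdc18, while Wfdc2 (272) was at the level of the other libraries. Relative to Bpifb1 in replicates 4, 5 and 6, Wfdc18 stood at 6.61%, 6.61% and 11.2% and Ltf at 1.73%, 1.80% and 4.34%. Of the 22 salivary gland markers 21 were in the table and 12 were tested. The duct keratin gene Krt7, chosen after its values were seen, was called higher in SP2509 (log2 fold change 2.20 ± 0.54, limma adjusted p = 0.0312, and 0.113 with the close pairs merged), and 0 were called lower (limma, 0 at an unadjusted p under 0.05), while edgeR called 0 in either direction and DESeq2 called 11 higher. The part of gland tissue in the Wfdc18, Wfdc2, Wfdc12, Ltf and Lcn2 values was not tested. Without replicates 4 and 5 the median fold change of the 12 markers was 0.07, against 2.89 with them. Wfdc18 stayed above every vehicle library in replicates 1 to 3, where Bpifb1, Muc5b and Tff2 were at 11.5 or less. With replicates 1 to 3 alone the median log2 fold change of the 12 markers was -0.69. The keratin genes of the list went the other way there, with Krt7 at 1.69, Krt8 at 0.91 and Krt18 at 0.49.

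**Figure D3:**
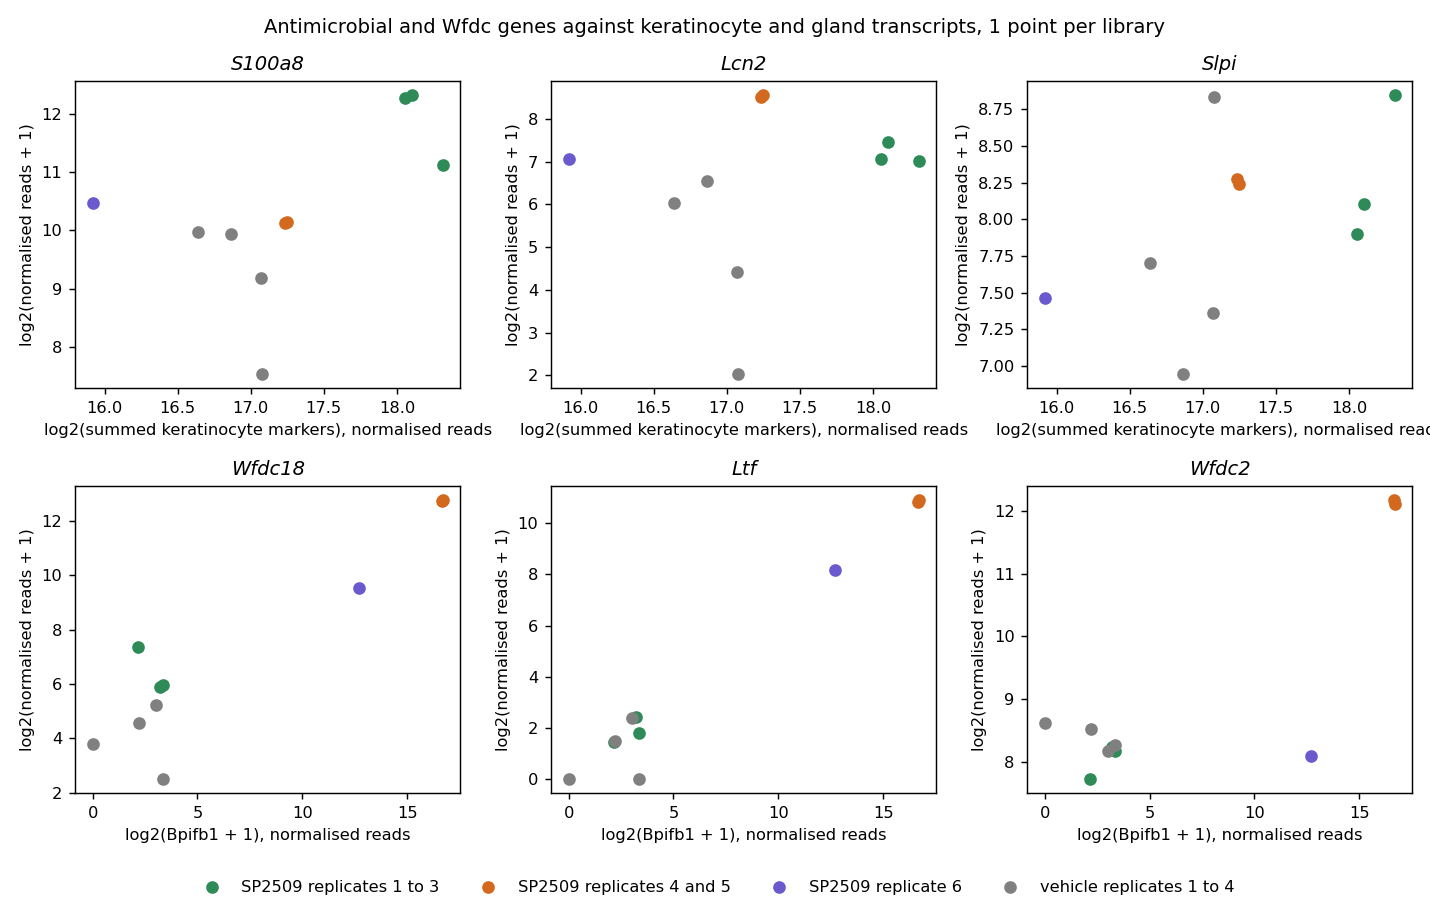
Level of 6 of the genes (vertical axes, log2 of the normalised read count plus 1) against the summed level of 16 keratinocyte markers (upper row, log2) or against the gland gene Bpifb1 (lower row, log2 of the normalised read count plus 1), with 1 point per library. Wfdc18 and Ltf are high in the 3 SP2509 libraries with high Bpifb1, Wfdc2 in replicates 4 and 5 only, and S100a8 is highest in SP2509 replicates 1 and 2, which with replicate 3 have the most keratinocyte reads.

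Keratinocyte transcripts moved with the calprotectin genes in part. Summed keratinocyte markers were at 281263, 272077, 325969, 155518, 154437 and 61941 normalised reads in SP2509 replicates 1 to 6, against 137914, 138531, 102207 and 119376 in vehicle replicates 1 to 4. Of these 16 markers, with Krt14, Krt5 and Krt13 the most abundant, 15 had a positive fold change, 0 were called in either direction (limma, 4 higher and 0 lower at an unadjusted p under 0.05; edgeR called 1 and DESeq2 5 higher), with a median of 0.49. Without SP2509 replicate 6 limma called 9 of them higher, and with replicates 1 to 3 alone the median was 1.37. The basal keratin genes Krt14 and Krt5 had log2 fold changes of 0.79 ± 0.36 and 0.48 ± 0.36 (limma adjusted p = 0.173 and 0.407), and Krt13, of the differentiated layers, 0.10 ± 0.56 (limma adjusted p = 0.930). Krt6a, Krt6b and Krt16, keratins of stressed or wounded epithelium chosen after their values were seen, had log2 fold changes of 1.24, 1.14 and 1.20 (limma adjusted p = 0.0591, 0.144 and 0.0669).

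Set per 1000 keratinocyte reads, S100a8 was at 6.78 to 23.0 in SP2509 and 1.33 to 9.83 in vehicle, and S100a9 at 3.35 to 12.0 in SP2509 and 0.344 to 4.70 in vehicle. Lcn2 was at 0.391 to 2.42 in SP2509 and 0.0222 to 0.775 in vehicle on that scale. Slpi was at 0.873 to 2.84 in SP2509 and 1.02 to 3.28 in vehicle, and Defb4 at 0.252 to 0.960 in SP2509 and 0.534 to 0.995 in vehicle. On this scale the groups overlapped for all 5 genes, including the 3 that did not overlap by normalised reads. The medians in SP2509 and vehicle were 12.7 and 6.20 for S100a8, 6.52 and 3.12 for S100a9, and 1.38 and 0.391 for Lcn2. They were 1.67 and 1.60 for Slpi, and 0.414 and 0.764 for Defb4. SP2509 replicate 6, with the fewest keratinocyte reads, had the highest S100a8 ratio. The part of epithelial content in the difference between groups was not tested.

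Of 16 neutrophil markers 11 were in the table, and they summed to 57.8 to 265 normalised reads in SP2509 and 49.1 to 159 in vehicle. Without Ceacam10, left out after its values were seen, which had 176 and 198 in SP2509 replicates 4 and 5, the sums were 55.3 to 89.9 in SP2509 and 49.1 to 148 in vehicle. The granule genes Elane, Camp and Ngp and the gene Retnlg did not exceed 12.6 normalised reads in any library. Of the 2 markers tested, the granulocyte receptor gene Csf3r had a log2 fold change of 0.07 ± 0.34 (limma adjusted p = 0.914) and Padi4 fell by 1.82 (SE 0.47, limma adjusted p = 0.0349, and 0.0868 with the close pairs merged). The SP2509 libraries with the most S100a8, replicates 1 and 2, had 59.6 and 92.4 normalised reads of neutrophil markers, inside the vehicle range. Those sums rest on 80 and 112 reads. The part of neutrophils in the S100a8, S100a9, Lcn2 and Ltf values was not tested.

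Muscle and macrophage markers, the other tissues a tongue sample holds, also differed between libraries. Skeletal muscle markers summed to 316784 to 870048 normalised reads in SP2509 and 194460 to 389065 in vehicle, with the most in SP2509 replicate 6. The actin gene Acta1 had the highest level, with a log2 fold change of 1.24 ± 0.38 (limma adjusted p = 0.0582), and 0 of 12 were called (limma, 6 higher and 0 lower at an unadjusted p under 0.05; edgeR called 0 and DESeq2 3 higher), while without SP2509 replicate 6 limma called 2 higher and 1 lower. Macrophage markers summed to 2302 to 3153 in SP2509 and 2023 to 2296 in vehicle. The complement gene C1qb rose (0.92 ± 0.24, limma adjusted p = 0.0357, and 0.124 with the close pairs merged) and the scavenger receptor gene Marco, chosen after its values were seen, fell by 2.16 (SE 0.55, limma adjusted p = 0.0349, and 0.0876 with the pairs merged). Of the 12 macrophage markers edgeR called 1 higher and 1 lower, and DESeq2, which gave Marco no adjusted p, 2 higher and 0 lower.

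**Figure D4:**
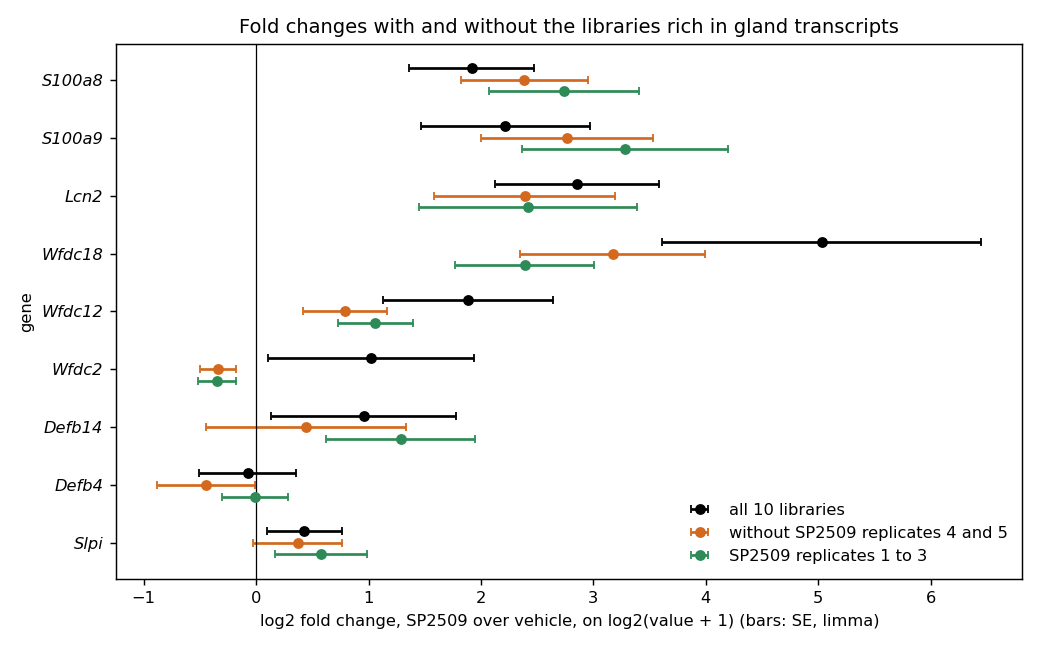
Log2 fold change of the 9 genes that passed the filter, SP2509 over vehicle on log2 of the normalised read count plus 1 (horizontal axis; bars are the standard error from limma), with all 10 libraries, without SP2509 replicates 4 and 5, and with SP2509 replicates 1 to 3 alone. Leaving out SP2509 replicates 4 and 5, the libraries rich in gland transcripts, lowers Wfdc18, Wfdc12 and Wfdc2 most, with Wfdc2 turning negative. It lowers Lcn2, Defb14, Defb4 and Slpi by less, and raises S100a8 and S100a9.

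Other genes of the same families and of the pathways around them were counted in 8 lists, chosen with earlier results of these data known. Of 171 genes listed 139 were in the table and 111 were tested. In SP2509, limma called 3 higher (Cxcl14, Bcl3 and Cebpd) and 0 lower, with 20 higher and 7 lower at an unadjusted p under 0.05. Of all tested genes limma called 4.95% higher and 4.15% lower, and nothing is read from the counts of the lists. Of the listed genes edgeR called 4 higher and 0 lower, and DESeq2 15 higher and 2 lower. Of the 111, 73 were positive in fold change, and the median of all 111 was 0.21, against 0.02 over all tested genes. The counts rest on single libraries: 0 were called higher without vehicle replicate 1, 1 without vehicle replicate 2, and 21 higher and 3 lower without SP2509 replicate 6. With the close pairs merged, and without SP2509 replicates 4 and 5, 0 were called in either direction.

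Cxcl14, which encodes an epithelial chemokine with antimicrobial activity, was at 201, 225, 170, 425, 378 and 107 normalised reads in SP2509 replicates 1 to 6 and at 50.1, 109, 74.6 and 141 in vehicle replicates 1 to 4. The groups overlapped through SP2509 replicate 6, and the log2 fold change was 1.37 ± 0.38 (limma adjusted p = 0.0450, and 0.151 with the pairs merged). Saa3, an acute-phase serum amyloid gene, had a log2 fold change of 2.50 ± 0.92 (limma adjusted p = 0.0999), and its vehicle libraries ran from 5.56 to 242 normalised reads. Rnase4, a secreted ribonuclease gene, had 0.51 ± 0.15 (limma adjusted p = 0.0572). Among the 18 tested genes of this list of other secreted antimicrobial proteins, 14 were positive, and the median was 0.42.

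Other members of the gene families did not pass the test (limma; 1 S100 gene higher and 0 lower at an unadjusted p under 0.05, and of the 3 families together edgeR called 0 and DESeq2 1 higher). Of 10 other WAP and Kunitz-type inhibitor genes found, 8 were tested and 7 had a positive fold change, and the smallest p was that of Spint2, an epithelial serine protease inhibitor (0.84 ± 0.41, limma adjusted p = 0.202). Wfdc1 had 0.56 ± 0.32 and Wfdc17 0.65 ± 0.37 (limma adjusted p = 0.275 for each). Of the other beta-defensins 2 were tested, with Defb1 at -0.54 ± 0.49 and Defb3 at 0.24 ± 0.27 (limma adjusted p = 0.508 and 0.599). Of 12 tested S100 genes 9 had a positive fold change, with S100g at 2.27 ± 1.02, S100b at -0.48 ± 0.23 and S100a16 at 0.37 ± 0.22 (limma adjusted p = 0.171, 0.189 and 0.289).

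Among the cytokines that induce these genes and their receptors, 19 of 24 were tested and 0 were called (limma; 4 higher and 2 lower at an unadjusted p under 0.05; edgeR called 0, DESeq2 1 higher and 1 lower). Il1b, the inflammatory cytokine gene, had 22.0 to 40.4 normalised reads in SP2509 (median 27.2) and 7.42 to 22.4 in vehicle (median 13.3), a log2 fold change of 1.03 ± 0.34 (limma adjusted p = 0.0708). Its receptor gene Il1r1 had -0.45 ± 0.15 and the IL-17 receptor subunit gene Il17rc -0.45 ± 0.16 (limma adjusted p = 0.0712 and 0.0981).

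In the list of 19 NF-kappaB, C/EBP and STAT3 regulators, all tested, limma called 2 higher and 0 lower. Of all tested genes it called 4.95% higher and 4.15% lower. Bcl3, a nuclear cofactor of NF-kappaB, was at 298, 351, 247, 454, 445 and 284 normalised reads in SP2509 replicates 1 to 6, against 193, 121, 191 and 222 in vehicle replicates 1 to 4, without overlap (log2 fold change 0.92 ± 0.21, limma adjusted p = 0.0240, and 0.0989 with the pairs merged). Cebpd, a C/EBP factor induced in the acute phase, was at 876, 772, 896, 789, 792 and 961 in SP2509, against 579, 660, 656 and 504 in vehicle, also without overlap (0.50 ± 0.11, limma adjusted p = 0.0218, and 0.0796 with the pairs merged). Cebpd differed little between SP2509 libraries, including the gland-rich ones. Ikbkb, the gene of an IkappaB kinase, had -0.28 ± 0.10 (limma adjusted p = 0.0794).

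Receptors and targets of the proteins gave 16 tested genes, 9 with a positive fold change and 0 called (limma; 4 higher and 1 lower at an unadjusted p under 0.05; edgeR called 1 and DESeq2 3 higher). Anxa2 had 0.68 ± 0.20, Cd14 0.58 ± 0.19 and Tlr4, a receptor of extracellular calprotectin, 0.61 ± 0.21 (limma adjusted p = 0.0563, 0.0761 and 0.0806). All 17 genes of iron, zinc and manganese handling were tested, 10 had a positive fold change and 0 were called (limma; 5 higher and 2 lower at an unadjusted p under 0.05; edgeR called 0 and DESeq2 3 higher). The smallest p-values were those of the zinc exporter gene Slc30a1 (0.55 ± 0.16), the transferrin gene Trf (1.39 ± 0.43) and the iron regulatory protein gene Aco1 (0.36 ± 0.11), with limma adjusted p = 0.0508, 0.0614 and 0.0616.

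**Figure D5:**
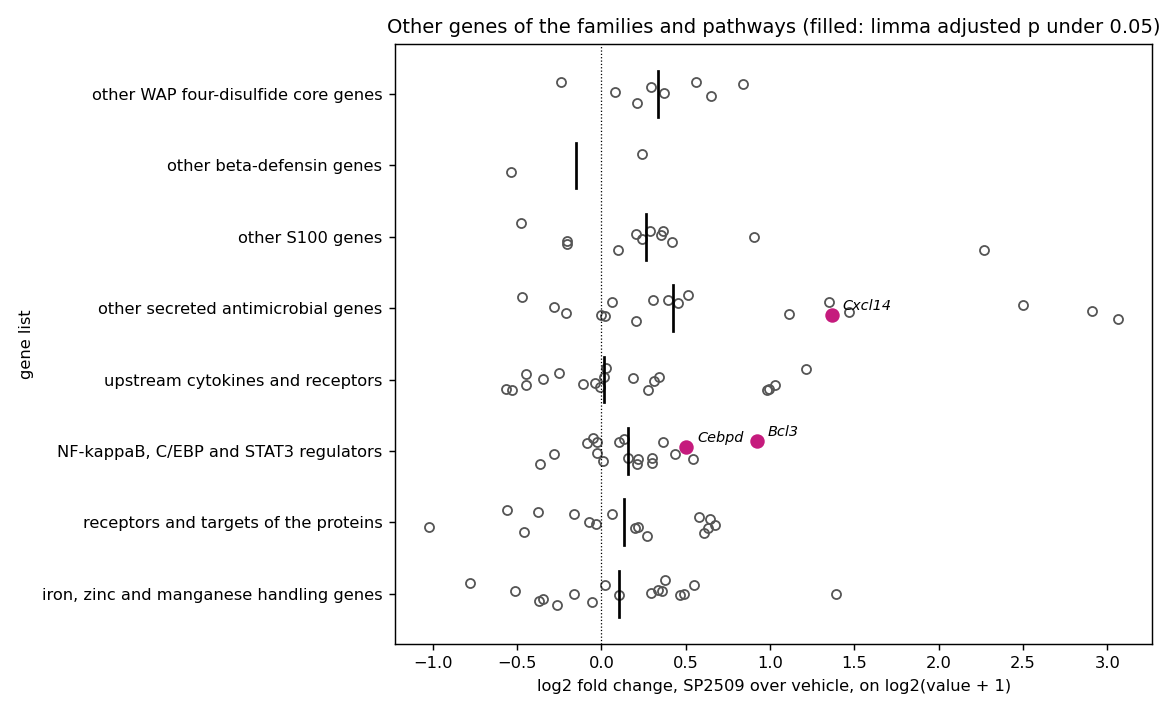
Log2 fold change of the 111 tested genes of the 8 lists, SP2509 over vehicle on log2 of the normalised read count plus 1 (horizontal axis); circles are genes, filled where called by limma, and vertical bars are list medians. Most points lie between -0.5 and 1, list medians run from -0.15 to 0.42, and the called genes are Cxcl14, Bcl3 and Cebpd.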

How the data were processed

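Tongue RNA of 6 SP2509 and 4 vehicle libraries was profiled by poly-A RNA sequencing. The deposited signal values are gene-level counts scaled by 1 factor per library, as the values themselves show: 100% of them were whole multiples of the library's value of 1 read, to a tolerance of 0.01. Tools and build, per the submitters' processing notes, include HISAT2, featureCounts and mm10. Annotation release, strand setting and scaling tool: not given in the sources used here. Coordinates come from GENCODE M21 on GRCm38, and upstream sequences from RefSeq (GRCm38.p6).

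SP2509 and vehicle were compared with limma 3.58.1 (R 4.3.3; trend and robust options on) on log2(value + 1), two-sided, in 17088 genes that reached 10 in 4 or more of the 10 libraries, and p-values were adjusted by Benjamini-Hochberg over all of them. Fold changes understate the change of low genes. The genes, lists and tests were chosen with earlier results of these data known, and listed genes were searched by symbol and RefSeq synonym. Named besides the 10 genes were, of each list, the called genes or else up to 3 with the smallest p. Of each marker list, up to 3 with the highest mean were named. Nearest profiles were sought among officially named genes that passed the filter and had a mean of 50 or more. Dmbt1, Bpifa2, Bpifb1 and further markers outside this rule were chosen after their values were seen. One marker that the rule takes is not reported here.

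Close pairs of SP2509 libraries were averaged in means and SDs. Alternatives were pseudocounts, filters, TMM and quantile scaling, limma without trend, the count models of edgeR 4.0.16 and DESeq2 1.42.0 on recovered reads, a replicate block, merged pairs and libraries left out. Scripts were tested on simulated data. Tables and figures used Python 3.11.15, pandas 2.3.3, NumPy 2.4.6 and matplotlib 3.10.9.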

Additional observations from a re-analysis of the deposited data

Results flagged for a closer look

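Each of the 10 genes in each group gave a set of values, and in 1 of these 20 sets a library stood apart, its gap to the nearest library being a larger share of the group's range than Dixon's critical value. It was Wfdc12 in vehicle replicate 1, at 72.3 normalised reads, while the other vehicle libraries had 32.3 to 33.8. By the construction of that value chance alone flags about 1 in 20 such sets.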

How the results depend on the processing

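Over all tested genes, 846 were called higher and 709 lower in SP2509. Higher genes numbered 553 without a filter, 1288 with TMM scaling, 490 without a trend, 1606 with DESeq2, 219 without SP2509 replicates 4 and 5, and 1584 with replicates 1 to 3 alone; lower genes numbered 1394, 156 and 1122 in the last 3. Quantile normalization gave 666 higher and 1060 lower, and TMM 575 lower. With the close pairs merged limma called 0 in either direction (3632 at an unadjusted p under 0.05). Leaving out 1 library gave 171 (vehicle replicate 1) to 1971 (SP2509 replicate 6) higher and 107 to 1488 lower genes, with the same 2 libraries at the ends, and only the 614 higher genes without vehicle replicate 2 lay within 1.5 times the full count. Listed genes called higher (3) numbered 7 with a filter at 50 and with TMM, 6 with quantile normalization, 15 with DESeq2, 18 with replicates 1 to 3, and 0 to 21 with 1 library left out; those called lower (0) numbered 1, 2, 5 and 0 to 3 with quantile normalization, DESeq2, replicates 1 to 3 and 1 library left out. The replicate block gave 11 higher and 3 lower listed genes, 1125 higher and 769 lower genes in all, and 1 of the 9 (Lcn2). The labels do not say whether replicate numbers pair the libraries. After the group means were removed, same-numbered libraries had correlations of 0.13, 0.03, -0.20 and 0.13. Libraries with different numbers had -0.21 to 0.19. These correlations cannot exclude a shared animal or batch. Log2 fold changes of the 9 genes moved by less than the spread between libraries in 205 of 206 alternative values, the exception being Wfdc18 at 2.39 with replicates 1 to 3. That spread was each gene's own pooled SD within groups, which is wide for the genes that SP2509 replicates 4 and 5 raise. Without these libraries Wfdc2 went from 1.02 to -0.34 and Wfdc18 from 5.03 to 3.17, and both count as within it. The count is therefore no measure of stability. Of the 9, 2 were called in the 10-library fit, 5 with DESeq2, 3 with TMM and with a filter at 50, 2 with edgeR and with replicates 1 to 3, 1 with quantile normalization, and 0 without a filter, without a trend, with the pairs merged and without SP2509 replicates 4 and 5; leaving out 1 library left 0 or 1. Defb4 stayed near 0, between -0.44 and 0.26, and changed sign between settings. The cause of these changes was not tested. The number of vehicle libraries and their lower depth limit what can be said of Ltf, Defb14 and the neutrophil markers.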

Other observations

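Several other secreted defence genes of glands followed SP2509 replicates 4 and 5. They were chosen here after their values were seen. Pglyrp1, a peptidoglycan recognition protein gene, was at 4883 and 4813 normalised reads in those libraries, and reached 67.6 elsewhere in SP2509 and 47.9 in vehicle. Pigr, the receptor that carries IgA into secretions, was at 3274 and 3531 there, 43.9 in SP2509 replicate 6 and at most 9.21 in vehicle. Ccl28, a mucosal chemokine gene, was at 322 and 392 there and reached 12.2 elsewhere in SP2509 and 15.5 in vehicle. Lyz2, the lysozyme gene of macrophages, is not counted among these genes and differed less between libraries. It was at 1152 in each of SP2509 replicates 4 and 5, while the remaining SP2509 libraries had 590 to 1039 and vehicle 367 to 852.

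Without SP2509 replicate 6, the library with the most muscle and fewest keratinocyte reads, limma called 21 listed genes higher and 3 lower. The higher ones included S100a11, S100a14 and S100a16 (log2 fold changes 0.48, 0.66 and 0.54, limma adjusted p = 0.0231, 0.0117 and 0.00916) and Cebpa, a C/EBP factor (0.81, limma adjusted p = 0.00746). In the same fit 9 of the 16 keratinocyte markers were called higher, Krt14 among them (1.06, limma adjusted p = 0.00679), and their part in these calls was not tested. In SP2509 replicate 6 Cebpa was at 306 normalised reads, below every vehicle library (397 to 740). Il1rn, the interleukin 1 receptor antagonist gene, was at 455, 473, 380, 196, 142 and 122 in SP2509 replicates 1 to 6 and at 102, 138, 163 and 119 in vehicle replicates 1 to 4, and was called without replicate 6 (1.19, limma adjusted p = 0.0362). The lower ones were Chuk, Ccr2 and the phagosomal metal transporter gene Slc11a1 (-0.45, -0.67 and -0.96, limma adjusted p = 0.0162, 0.0307 and 0.00979). That fit was chosen for description after its counts were seen, and it counted each library of the close pairs separately. With the pairs merged and replicate 6 kept, limma called 0 of all tested genes. In that merged fit the limma adjusted p was 0.684 for S100a11, 0.589 for S100a14, 0.506 for S100a16, 0.516 for Cebpa and 0.208 for Il1rn.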
